A study of Mus musculus with 12 samples.

Results

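Mammary tumours of the mouse strain MMTV/neundl-YB, called YB, were compared with tumours of the parental strain MMTV/neu NDL2-5, called NDL25. The comparison rested on 4 of the 12 RNA samples of the series, 2 pools titled YB and 2 pools titled NDL25, chosen by their titles and by no measured value. In both strains a transgene under the MMTV promoter, which is active in mammary epithelium, supplies an activated neu receptor (ErbB2), and YB tumours carry the receptor in an altered form. All donors were female and had borne tumours for 6 weeks, and the sources used here give no age. Each pool held equal amounts of RNA from 5 tumours, so 10 tumours stood for each strain, and the labels present the pools as biological repeats. The p-values below measure the spread between such pools. Each pool was hybridised on 2 two-colour Agilent arrays with the dyes exchanged, against Universal Mouse Reference RNA, a purchased pool of RNA from different mouse cells. The strains NYPD, YC, YD and YE, with other altered forms of the receptor, gave the remaining 8 pools, which served to estimate the spread. Every receptor was represented by its own transgenic strain, so effects of the receptor and of the strain cannot be told apart.

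ErbB2 is a receptor tyrosine kinase that signals through phosphorylated tyrosines in its tail, each of which recruits adaptor proteins. As background, the NYPD receptor lacks these tail sites, and the YB receptor has a single site added back that binds the adaptor Grb2. Grb2 carries the exchange factor Sos to Ras and so feeds the Ras and ERK kinase pathway, whose known output includes Sprouty and Dusp feedback inhibitors and transcription factors of the Ets, Egr and Fos families. The parental NDL25 receptor keeps all of its tail sites. The comparison asks how tumours driven through the Grb2 site differ from those driven by the receptor with every site.

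The level of a gene is given as its log2 ratio of tumour over reference RNA, 1 value per pool after averaging the arrays with exchanged dyes, so a value of 1 means 2-fold more signal in the tumour than in the reference mixture. Across the 8 arrays of YB and NDL25, tumour spots had a median intensity between 409.6 and 763.5 and a local background between 39 and 45, and 97.5% to 98.9% of the spots were well above background. The number of pools, 2 per strain, limits the precision. The labels do not say which dye carried the tumour RNA on which array, so the tumour channel was read from milk and luminal genes. Krt8 and Krt18, keratins that define luminal epithelium, were among those genes, so the sign of their ratios was partly set by that choice. They lay above the reference in all 4 pools. Krt8 was at 1.90 and 1.63 in the YB pools and 1.64 and 1.44 in the NDL25 pools. Elf5, a transcription factor of alveolar luminal cells, stood at 4.67 and 5.02 in YB and 4.82 and 4.82 in NDL25. The muscle marker Ckm and the epidermal markers Krt1 and Flg were not called, with differences of 0.095 ± 0.55, 0.13 ± 0.083 and 0.01 ± 0.097. Pools numbered 1 stood apart in the gene of the transgene itself: the brightest Erbb2 probe lay at 1.85 in YB pool 1 and 1.64 in NDL25 pool 1, against 3.42 to 4.19 in the other 10 pools. The 2 other Erbb2 probes did not show that gap. Leaving out both of these pools left 515 calls.

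In a limma model of all 12 pools, 1109 of 28351 genes (3.91%) differed between YB and NDL25 tumours at an adjusted p under 0.05, and rises outnumbered falls. YB was higher for 886 genes (3.13% of those tested) and lower for 223 (0.787%). Counts for gene lists below are to be read beside these shares. A list close to them held calls about as often as all genes. A difference of at least 2-fold was reached by 171 of the rises (0.603% of all genes) and by 37 of the falls (0.131%), and the median over all genes was -0.011. Among the called genes the difference on the log2 scale was under 0.5 in size for 421 of the 886 rises and for 78 of the 223 falls. Another probe was tested for 321 of the 1109 called genes, and for 211 of the 321 every other probe pointed the same way as the brightest, which gave the call. All arrays of both strains were read in the same session of the feature extraction software. Leaving out 1 pool of NYPD, YC, YD or YE gave the same YB and NDL25 comparison for either pool of that strain. A pool left alone in its strain adds nothing to the spread. Tallies below over the 12 fits that left out 1 pool thus hold repeated fits. The calls lean on the spread of all 6 strains and on both parental pools: without NDL25 pool 1 there were 144 calls, without NDL25 pool 2 there were 161, and with the 4 pools fitted alone there were 12. In every fit that left out 1 pool, 109 genes stayed called, 103 of them higher and 6 lower in YB, and 74 of the 109 carried an ordinary gene symbol and lay outside the salivary and patterning lists.

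**Figure D1:**
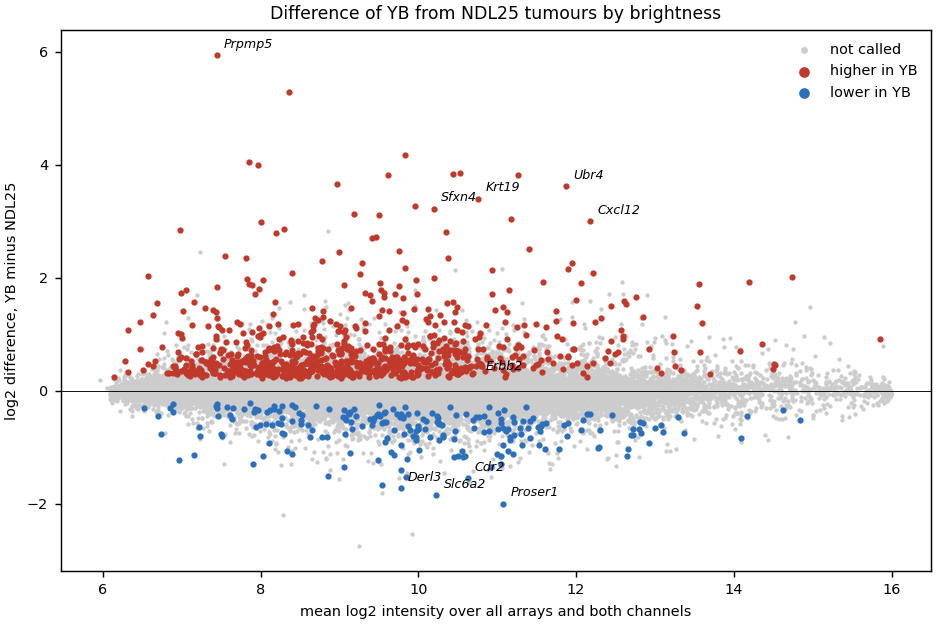
Each point is 1 of the 28351 genes, with mean log2 intensity over all arrays on the horizontal axis and the log2 difference of YB minus NDL25 on the vertical axis. Red points are the 886 genes called higher in YB, blue points the 223 called lower, and grey points the genes not called. The rises reach further from 0 than the falls, and Erbb2 lies near 0.

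Erbb2 itself, the gene of the transgene, was at 1.85 and 4.19 in the YB pools, against 1.64 and 3.92 in the NDL25 pools. In both strains pool 1 was the lower by more than 2 on the log2 scale, and the strains overlapped. The difference of 0.24 ± 0.85 had an adjusted p of 0.937, and the 2 other Erbb2 probes gave differences of -0.048 to 0.19. The sign changed with the pools used, and the difference was -0.90 without NDL25 pool 1 and -0.93 without YB pool 2, neither called. The dimerisation partner Erbb3 was at 3.20 and 3.35 in YB and 3.71 and 3.57 in NDL25, without a call (adjusted p = 0.405). Of 17 ErbB receptors and ligands 1 rose and 0 fell. That gene was Erbb4, a further receptor of the family, which was 0.32 higher (adjusted p = 0.0281), but its 3 other probes pointed the other way, at -0.25 to -0.093.

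Genes of the Ras and ERK pathway were called in both directions. Of 41 genes of ERK feedback and output, 4 rose (9.76%) and 1 fell (2.44%), beside 3.13% and 0.787% of all genes. The median was -0.011, beside -0.011 over all genes. The fall was Spry4, a Sprouty inhibitor of Ras signalling, at 1.05 and 1.20 in the YB pools, against 2.35 and 2.21 in the NDL25 pools. Both YB pools were below both NDL25 pools, with a log2 difference of -1.16 ± 0.18 (adjusted p = 0.0182), while a second Spry4 probe gave -0.16. Its relative Spry1 went the other way, at 0.79 and 1.04 in YB and 0.45 and 0.39 in NDL25, a rise of 0.49 (adjusted p = 0.0249). Egr2, an immediate early zinc finger factor, was at 0.44 and -0.51 in YB tumours, against -1.42 and -1.35 in NDL25 tumours, a rise of 1.35 ± 0.26 (adjusted p = 0.035). The YB pools did not overlap those of NDL25 for Egr2 but lay far apart from each other. Plaur, the urokinase receptor, rose by 0.73 (adjusted p = 0.0279), and Rasgrp1, a Ras exchange factor, by 1.03 (adjusted p = 0.046), with second probes at 0.063 for Plaur and 0.034 for Rasgrp1. The other strains reached -0.54 for Rasgrp1, above YB at -0.99 and -0.87. These calls are among the less firm: Spry4 was called in 9 of the 12 fits that left out 1 pool, Spry1 in 7 of the 12, Plaur in 5 of the 12, Egr2 in 2 of the 12 and Rasgrp1 in 2 of the 12.

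Several well-known ERK outputs gave no call. They are named for that role, with their values already seen. Dusp6, a phosphatase that switches off ERK, stood at 1.81 and 1.95 in YB and 2.35 and 2.44 in NDL25, a difference of -0.51 ± 0.29 (adjusted p = 0.43). Etv4, an Ets factor, differed by -0.48 ± 0.29, the AP-1 subunit Fosl1 by -0.13 ± 0.11, Myc by -0.011 ± 0.19 and the cyclin Ccnd1 by -0.21 ± 0.23, all as log2 differences with SE. The YB levels of Dusp6 and Etv4 lay below both NDL25 levels, and those of Myc overlapped with them. These p-values do not show that the levels were equal.

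Adaptors that bind receptor phosphotyrosines were nearly all without a call. Of 35 such genes 0 rose and 1 fell, and 6 had an unadjusted p under 0.05. Grb2, which reads the YB site, was at -0.38 and -1.03 in the YB pools and -0.60 and -0.94 in the NDL25 pools, a difference of 0.064 ± 0.23 (adjusted p = 0.935). Shc1, an adaptor that also leads to Grb2, differed by -0.038 ± 0.18, and Gab1, a docking protein bound by Grb2, by 0.18 ± 0.39. The fall was Grb10, an adaptor that restrains insulin and growth factor receptors, which was at -1.64 and -1.30 in YB, against -0.61 and -0.26 in NDL25. The groups were apart, with a difference of -1.03 ± 0.17 (adjusted p = 0.0191), and both YB pools lay below the other 8 pools as well (-0.40 to 0.25). Its 2 other probes gave -0.64 to -0.071. The call was lost without NDL25 pool 1, NDL25 pool 2 or YB pool 1, with adjusted p of 0.0576, 0.108 and 0.0544.

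The 15 largest rises outside the salivary and patterning genes held keratin, chemokine and glycosylation genes. For 13 of the 15, both YB pools lay above all 8 pools of the other altered-receptor strains, the exceptions being Krt19 and Nepn. Genes chosen for high YB levels tend to hold that position: 789 of the 886 rises did, and 137 of the 171 rises of at least 2-fold, beside 10.8% of all genes. Among the 15 largest falls, both YB pools lay below all 8 of these pools for 5 genes (Kank4, Rabep2, St6galnac4, C5ar2 and Traf1), as did 78 of all 223 falls, 14 of the 37 falls of at least 2-fold and 6.39% of all genes. For Spry4, Pir, Rab26, Ddo, Tmem82 and Derl3 it was the parental pools that lay above all 8. The comparisons of YB with NDL25 and with the other strains share the YB pools.

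**Figure D2:**
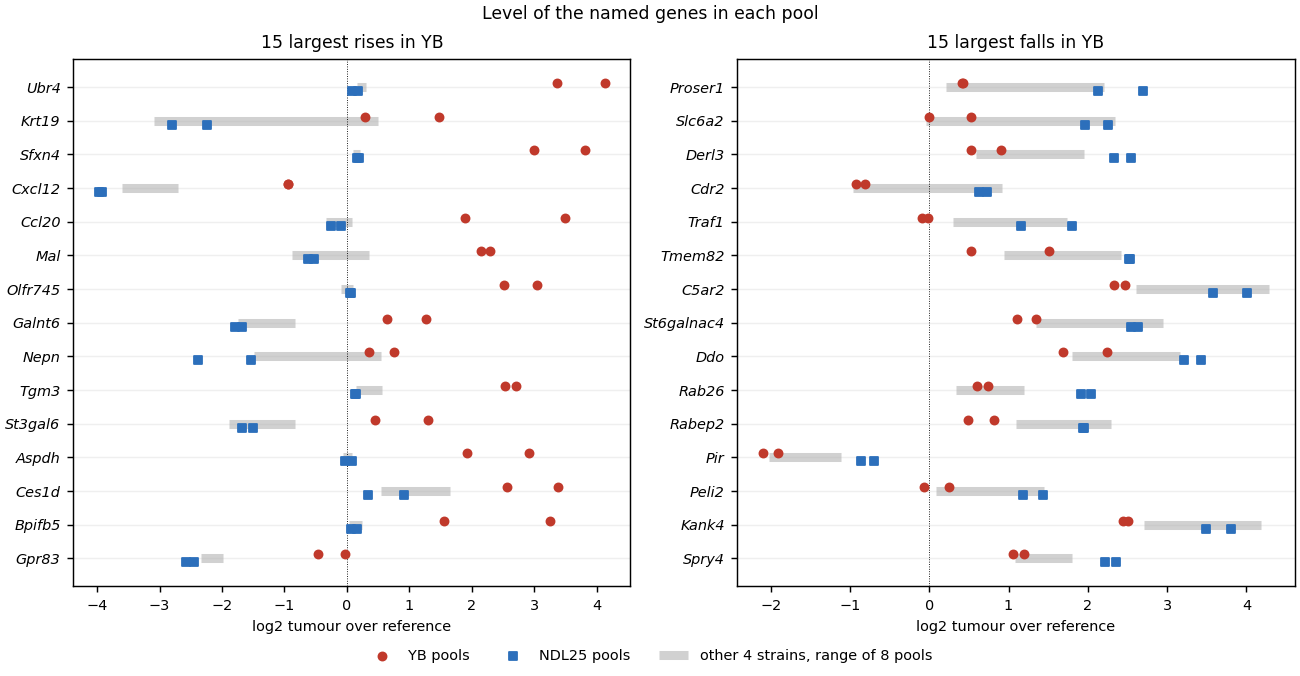
Log2 tumour over reference of the 15 largest rises (left) and the 15 largest falls (right) among genes with an ordinary symbol outside the salivary and patterning lists. Red circles are the 2 YB pools, blue squares the 2 NDL25 pools, and grey bars the range of the 8 pools of NYPD, YC, YD and YE. For the rises the red circles stand clear of the blue squares and, except for Krt19 and Nepn, of the grey bars, whereas for several falls, such as Rab26 and Derl3, the blue squares stand to the right of the bar, on the side of higher levels.

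Many calls needed both parental pools. Of the 15 largest rises, Ccl20, Krt19, Bpifb5, Ces1d and Nepn lost their call without NDL25 pool 1 (adjusted p 0.088 to 0.18), and the same 5 with Aspdh lost it without NDL25 pool 2 (0.0509 to 0.165). Without YB pool 1 the calls of Ces1d, Krt19 and Nepn were lost (0.0723 to 0.104), and without YB pool 2 that of Nepn (0.0637). Cxcl12, Galnt6, Mal, St3gal6, Tgm3, Olfr745, Ubr4, Sfxn4 and Gpr83 stayed called whichever of the 12 pools was left out. Of the 15 largest falls, 14 lost their call without NDL25 pool 1 (0.054 to 0.242), 13 without NDL25 pool 2 (0.0566 to 0.194), 9 without YB pool 1 (0.0512 to 0.111) and 6 without YB pool 2 (0.054 to 0.149), and Rab26 alone held in every such fit. Over all 154 called genes that the naming rule picked, 111 lost their call without NDL25 pool 1 (0.0516 to 0.243) and 109 without NDL25 pool 2 (0.0509 to 0.228), against 50 without YB pool 1 (0.0512 to 0.16) and 56 without YB pool 2 (0.0502 to 0.149). Of the 154, 39 held in every fit that left out 1 pool. Those among them with a role in the groups below are Krt7, Tgm3, Mal, Cxcl12, Cxcl17, Galnt6, St3gal6, Mgat1, Gdf5, Id4, Il34, Atp2a3, Trpv6, Slc2a5, Slc43a1, Slc39a4, Slc4a8 and Slc2a12.

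Some keratins of simple epithelium rose in YB. Krt19, a keratin of luminal and ductal cells, was at 1.48 and 0.29 in the YB pools, against -2.23 and -2.80 in the NDL25 pools. YB was above the reference and NDL25 far below it, a difference of 3.40 ± 0.64 (adjusted p = 0.0317). The other strains ranged from -3.09 to 0.49, so some of those pools were as low as the parental ones. The call held in 3 of the 12 fits that left out 1 pool, and it was lost without NDL25 pool 1, NDL25 pool 2 or YB pool 1 (adjusted p = 0.134, 0.165 and 0.104). Krt7, its relative in the same kind of epithelium, was at 2.52 and 2.26 in YB and 1.24 and 1.17 in NDL25, with both YB pools above every other pool of the series. Its rise of 1.19 ± 0.13 (adjusted p = 0.00505) held whichever pool was left out, and a second probe gave 1.31. Of 44 keratins 3 rose (6.82%) and 0 fell, and of 31 luminal regulators and hormone receptors 5 rose (16.1%) and 0 fell. The share of rises over all genes was 3.13%. Krt19 and Krt7 count in both lists, and the median of the luminal list was 0.024. Elf3, an epithelial Ets factor, rose by 1.07 (adjusted p = 0.0346), Muc1, an apical mucin, by 0.39 (adjusted p = 0.0486) and Wnt4, a ligand induced by progesterone in the mammary gland, by 0.37 (adjusted p = 0.0405). A second Muc1 probe gave 1.31, and on that probe the other strains reached 1.42, above YB at 1.11 and 1.28. Gata3, the master factor of luminal cells, was at 1.80 and 1.40 in YB and 2.13 and 2.27 in NDL25, with no call (adjusted p = 0.0977).

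Some genes of cornified epithelium rose too. Of 31 tested, 4 rose (12.9%, beside 3.13% of all genes) and 0 fell, with a median of 0.058. Tgm3, a transglutaminase that cross-links the cell envelope, was at 2.71 and 2.54 in the YB pools, against 0.13 and 0.15 in the NDL25 pools and 0.14 to 0.57 in the other strains. YB stood apart from all other pools, and the difference from NDL25 was 2.48 ± 0.12 (adjusted p = 0.000117), called under every alternative tried. Sprr2a1, a small proline-rich envelope protein, rose by 1.98 ± 0.27 (adjusted p = 0.0115), and loricrin (Lor) and the calmodulin-like Calml3 rose by 0.69 and 0.83. With the deposited ratios neither Lor nor Calml3 was called (adjusted p = 0.0789 and 0.482). The other strains reached 2.54 for Calml3, above YB at 2.11 and 1.78. The epidermal keratins Krt1 and Krt10 and filaggrin (Flg), which define epidermis, were not called, and Krt1 was at 0.25 and 0.31 in YB and 0.094 and 0.19 in NDL25. Mal, a membrane proteolipid of apical transport in polarised epithelium, was at 2.29 and 2.15 in YB tumours, against -0.52 and -0.62 in NDL25 tumours, and a second probe gave 1.70. The rise of 2.79 ± 0.25 (adjusted p = 0.00266) was called under every alternative tried. Trp63, the p63 factor of basal and squamous cells, rose by 0.82 (adjusted p = 0.0484), with a second probe at 0.022, and was the sole call among 23 basal and myoepithelial genes. Trp63 was at 0.43 and 1.04 in YB, and the other strains reached 1.59.

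Several chemokines rose. Of 60 chemokines and receptors 5 rose and 0 fell, and the median of 0.19 was 0.073 without YB pool 1 and 0.27 without YB pool 2. Over all genes 3.13% rose. Cxcl12, the ligand of Cxcr4 and a stromal product in many tissues, was at -0.94 and -0.95 in the YB pools, against -3.98 and -3.92 in the NDL25 pools. On this probe, the brightest, YB was the highest of the 6 strains, since the other 8 pools ran from -3.60 to -2.70. The rise of 3.01 ± 0.18 (adjusted p = 0.00027) passed under every alternative, and its second probe gave 1.88, with YB pool 1 at 0.058. Ccl20, which attracts Ccr6-bearing dendritic and T cells, was at 3.49 and 1.89 in YB, against -0.10 and -0.26 in NDL25 and -0.34 to 0.088 elsewhere. Outside YB the ratio lay near 0 in all 10 pools, and the YB pools differed from each other by more than 1 on the log2 scale. The difference was 2.87 ± 0.42 (adjusted p = 0.0143), and it was lost without either NDL25 pool (adjusted p = 0.088 and 0.0919). Cxcl17, a mucosal chemokine, was at 1.59 and 2.10 in YB, against 0.15 and 0.084 in NDL25, a rise of 1.73 ± 0.16 (adjusted p = 0.00274). Cx3cl1, a membrane-bound chemokine, rose by 1.14 (adjusted p = 0.0419) with a second probe at -0.034, and the lymph node homing receptor Ccr7 by 0.45 (adjusted p = 0.0256). The other strains reached 1.16 for Cx3cl1, above YB at 0.91 and 0.57. The matching receptors Cxcr4 and Ccr6, named for that reason with their values already seen, differed by 0.26 ± 0.29 and 0.012 ± 0.065 and were not called.

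The promoter of Ccl20 is shown because the gene is a known target of NF-kB, a transcription factor of inflammation. The window around the gene's start was taken from RefSeq (GRCm38.p6, chr1:83116516-83116815, plus strand). It was searched on both strands for the kappaB letters GGG, then any 2 bases, then TTTCC. The match is printed in capitals as its reverse complement.
Ccl20: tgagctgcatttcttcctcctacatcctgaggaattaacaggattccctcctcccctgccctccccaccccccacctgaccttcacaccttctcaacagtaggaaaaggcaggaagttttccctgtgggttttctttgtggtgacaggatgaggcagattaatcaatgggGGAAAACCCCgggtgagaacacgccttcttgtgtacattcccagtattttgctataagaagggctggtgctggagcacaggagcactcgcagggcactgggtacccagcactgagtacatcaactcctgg
Of the 5 chemokine and receptor genes that rose, 3 had a promoter in the table, and 1 of the 3 held the motif, while 1.63% of all 32841 promoters did. The match is a description of the letters in this window. Of 32 genes of the NF-kB pathway 2 rose (6.25%) and 1 fell (3.125%), beside 3.13% and 0.787% of all genes. The rises were Ccl20 and the adhesion molecule Icam1 (0.77, adjusted p = 0.0484). The fall was Traf1, an adaptor of TNF receptors, at -0.017 and -0.088 in YB and 1.80 and 1.15 in NDL25 tumours, with both YB pools below all 10 others. Its difference was -1.53 ± 0.22 (adjusted p = 0.0144), and the call was lost without NDL25 pool 1 (adjusted p = 0.0667).

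Enzymes that build mucin-type and N-linked sugar chains were called in both directions. Of 118 mucin and glycosyltransferase genes 10 rose (8.47%) and 5 fell (4.24%), beside 3.13% and 0.787% of all genes, with a median of 0.0037. Galnt6, which places the first sugar of O-linked chains, was at 0.64 and 1.27 in YB, against -1.69 and -1.79 in NDL25 and -1.74 to -0.84 in the other strains. YB alone was above the reference. The rise was 2.70 ± 0.23 (adjusted p = 0.00208), and a second probe gave 1.08. St3gal6, which caps galactose with sialic acid, was at 0.45 and 1.29 in the YB pools, against -1.50 and -1.68 in the NDL25 pools, a rise of 2.46 ± 0.25 (adjusted p = 0.00414) with a second probe at 0.52. Both genes kept their call whichever pool was left out. B3galt5, a galactosyltransferase, rose by 1.65 ± 0.28 (adjusted p = 0.0218), Chst2, a sulfotransferase, by 1.11 ± 0.22 (adjusted p = 0.0396), St6gal1, a sialyltransferase of N-linked chains, by 0.92 (adjusted p = 0.0101) and Mgat1, which opens the way to complex N-linked chains, by 0.84 (adjusted p = 0.00414). Mgat1 and St6gal1 had second probes near 0, at -0.005 and -0.11. The other strains reached -0.54 for St6gal1, above YB at -1.15 and -0.80.

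Among the falls St6galnac4, which adds sialic acid to short O-linked chains, was at 1.11 and 1.35 in YB, against 2.54 and 2.63 in NDL25. The strains did not overlap, the difference was -1.35 ± 0.21 (adjusted p = 0.0184), and a second probe gave the same size, -1.36. St3gal5, which makes the ganglioside GM3, was at 0.24 and 0.59 in YB tumours and 1.45 and 1.45 in NDL25 tumours, a difference of -1.04 ± 0.19 (adjusted p = 0.0265). Galnt10, in the same enzyme family as Galnt6, fell by 0.56 in log2 (adjusted p = 0.00619) and its 2 other probes gave -0.65 to -0.48. B3galt6 and St8sia5 were the remaining falls, at -0.51 and -0.67 on the log2 scale. Chst2, St3gal5 and St8sia5 were named after their values were seen.

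**Figure D3:**
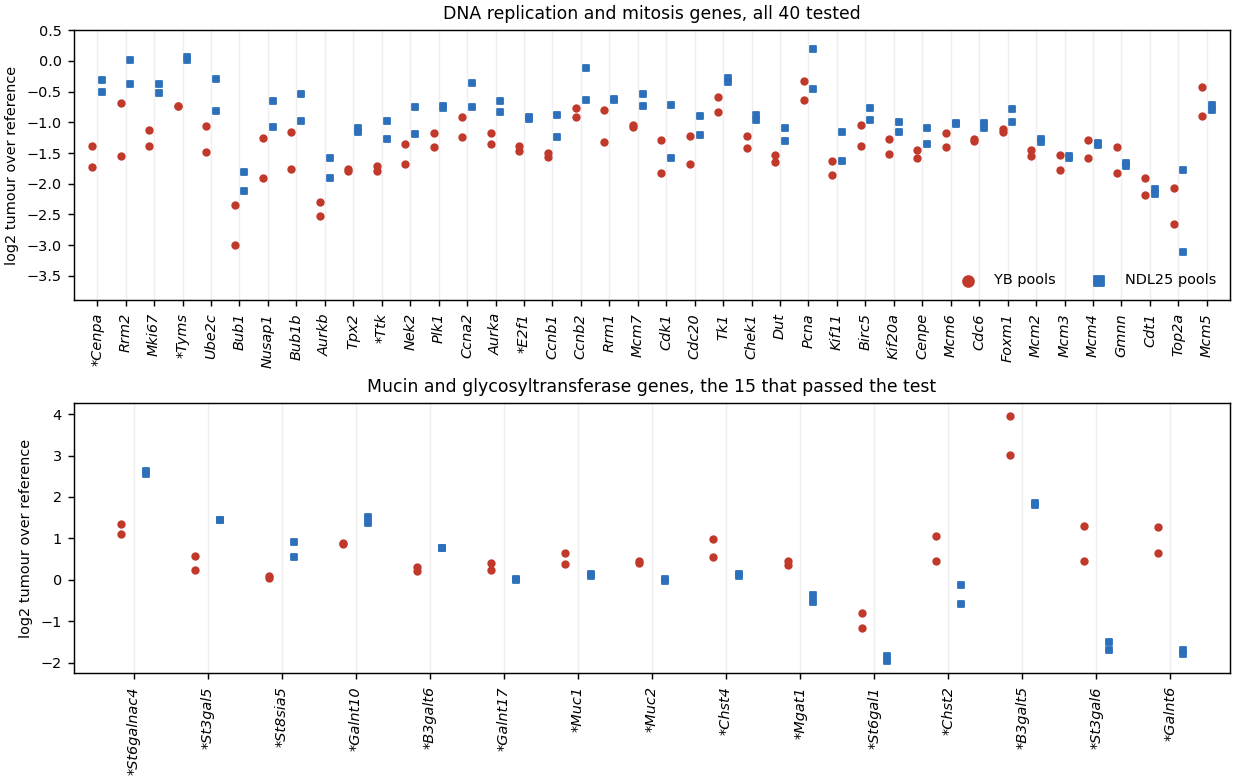
Log2 tumour over reference in each YB pool (red circles) and NDL25 pool (blue squares), for the 40 tested genes of DNA replication and mitosis (top, ordered by the difference, with an asterisk on the 4 that passed the test) and for the 15 mucin and glycosyltransferase genes that passed (bottom). In the top panel the red circles lie mostly below the blue squares, and in the bottom panel 5 genes are lower and 10 higher in YB.

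Most genes of DNA replication and mitosis had lower levels in YB, though few passed the test. Of 40 genes 0 rose and 4 fell (0.787% of all genes fell), and 36 of the 40 differences were below 0. For 31 of the 40 both YB pools lay below both NDL25 pools, an order that 24.6% of all genes held. The median was -0.42, and over all alternatives it ran from -0.57 to -0.31. Members of the list share their pools and are not independent of each other. Cenpa, the histone that marks centromeres, was at -1.73 and -1.38 in YB, against -0.50 and -0.31 in NDL25, a difference of -1.15 ± 0.22 (adjusted p = 0.0317). Tyms, which makes thymidylate for DNA, was at -0.74 and -0.73 in YB and 0.016 and 0.061 in NDL25, a difference of -0.77 ± 0.10 (adjusted p = 0.00907) with 2 other probes at -0.77 to 0.043. The mitotic checkpoint kinase Ttk fell by 0.62 in log2 (adjusted p = 0.0423) and the cell cycle factor E2f1 by 0.49 (adjusted p = 0.0465). The other 8 pools ran from -1.63 to -1.03 for Cenpa and from -0.87 to -0.50 for Tyms, so for both genes the parental pools were the highest of the series and the YB pools lay beside or among the other strains. That did not hold for Ttk and E2f1, where the other strains reached -0.91 and -0.78. NDL25 was at -1.28 and -0.98 for Ttk and at -0.94 and -0.91 for E2f1. Against the mean of the other 4 strains YB differed by -0.22 for Cenpa (adjusted p = 0.499) and by -0.072 for Tyms (adjusted p = 0.638). The proliferation marker Mki67, named for its common use with its value already seen, was at -1.13 and -1.38 in YB, against -0.53 and -0.37 in NDL25. Its YB pools were below those of NDL25, but the difference of -0.81 ± 0.27 did not pass (adjusted p = 0.161). Without either NDL25 pool none of Cenpa, Tyms, Ttk and E2f1 was called, with adjusted p from 0.0672 to 0.199. Without YB pool 1 Tyms alone stayed called (adjusted p = 0.0247), and without YB pool 2 Tyms and Cenpa did (adjusted p = 0.028 and 0.0445).

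The promoters of the 4 fallen genes were searched for the cell cycle homology region, CHR, a short element that binds repressors of mitotic genes outside mitosis. The letters TTTGAA were searched on both strands of the same RefSeq windows, and Cenpa (chr5:30666636-30666935, plus strand) and Ttk (chr9:83834439-83834738, plus strand) held them, shown in capitals.
Cenpa: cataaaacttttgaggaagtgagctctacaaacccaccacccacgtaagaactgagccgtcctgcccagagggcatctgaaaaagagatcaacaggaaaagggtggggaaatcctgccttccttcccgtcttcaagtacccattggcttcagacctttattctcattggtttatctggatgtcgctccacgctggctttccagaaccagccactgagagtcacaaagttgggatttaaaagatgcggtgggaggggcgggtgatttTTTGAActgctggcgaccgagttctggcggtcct
Ttk: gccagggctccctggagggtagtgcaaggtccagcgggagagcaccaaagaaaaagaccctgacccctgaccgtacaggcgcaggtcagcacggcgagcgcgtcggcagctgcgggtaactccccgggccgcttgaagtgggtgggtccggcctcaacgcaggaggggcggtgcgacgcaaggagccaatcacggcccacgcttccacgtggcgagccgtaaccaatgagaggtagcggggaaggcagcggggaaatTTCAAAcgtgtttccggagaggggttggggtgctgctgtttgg
In Ttk the capitals are the reverse complement. The motif was in 2 of the 4 promoters and in 17.9% of all promoters of this length, and Tyms and E2f1 did not hold it in these windows.

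Around the cell cycle, 49 cyclins, CDKs and their inhibitors held 0 rises and 2 falls (4.08%, beside 0.787% of all genes). Ccnf, a cyclin of the F-box kind, fell by 0.42 (adjusted p = 0.0291) and Ccnk, a partner of transcription kinases, by 0.81 (adjusted p = 0.0424), both on the log2 scale. A second Ccnk probe gave 0.099. Fanca, a DNA repair gene named after its value was seen, was at -1.37 and -1.24 in YB, against -0.44 and -0.47 in NDL25. It was among the 6 falls that stayed called whichever pool was left out, at -0.85 ± 0.087 (adjusted p = 0.00419), but its second probe gave -0.13. Of 25 p53 targets 1 rose, the stress gene Gadd45g (1.41 ± 0.18, adjusted p = 0.00907), and 1 fell, Perp, a component of epithelial junctions (-0.73 ± 0.14, adjusted p = 0.032).

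A few products of milk and of innate defence rose. Of 16 milk and fat globule genes 2 rose (12.5%, beside 3.13% of all genes) and 0 fell. Lactoferrin (Ltf), an iron-binding defence protein of milk and other secretions, was at 3.45 and 3.59 in the YB pools, against 1.38 and 1.47 in the NDL25 pools, a rise of 2.09 ± 0.23 (adjusted p = 0.00544) with a second probe at 1.85. Ltf is also in the salivary list, and its spots were saturated on 2 of the 4 YB arrays. Mfge8, a protein of the milk fat globule that bridges dying cells to phagocytes, was at 2.43 and 2.36 in YB and 0.46 and 0.48 in NDL25, a rise of 1.93 ± 0.33 (adjusted p = 0.0241). Its spots were saturated on 2 of the 4 YB arrays, so the YB level may be understated. The other strains reached 2.42 for Mfge8. The major milk proteins Wap (whey acidic protein) and Lalba (alpha-lactalbumin), chosen after their values were seen, were not called and had opposite signs, at 1.25 ± 0.37 and -1.54 ± 0.49.

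Cd14, the co-receptor for bacterial lipopolysaccharide, was at 1.55 and 1.87 in YB tumours, against -0.53 and -0.57 in NDL25 tumours. Both YB pools were above the reference and both NDL25 pools below it, a rise of 2.26 ± 0.27 (adjusted p = 0.00689). Its partner Lbp, which hands lipopolysaccharide to Cd14, rose by 0.92 ± 0.13 (adjusted p = 0.0122), and the adaptor Myd88 of the same receptors by 0.46 (adjusted p = 0.0353). Of 47 Toll-like receptor and complement genes 4 rose (8.51%) and 1 fell (2.13%), beside 3.13% and 0.787% of all genes. The fall was C5ar2, a receptor of the complement fragment C5a, at 2.47 and 2.33 in YB and 4.01 and 3.58 in NDL25, where both YB pools were the lowest of all 12, with a difference of -1.39 ± 0.24 (adjusted p = 0.0235). Among 19 acute phase and serum amyloid genes 3 rose (15.8%) and 0 fell. The 3 were Lbp, haptoglobin (Hp, 1.47 ± 0.30, adjusted p = 0.0409) and Pigr, which carries antibodies across epithelium (1.43 ± 0.30, adjusted p = 0.0439). With the authors' deposited ratios none of the 3 was called. Those ratios gave 0.32 for Lbp (adjusted p = 0.606), 1.25 for Hp (adjusted p = 0.147) and 0.35 for Pigr (adjusted p = 0.818). Il34, a ligand of the macrophage receptor Csf1r, rose by 0.91 ± 0.089 (adjusted p = 0.00385). It led the 2 rises among 86 interleukins and receptors, a share of 2.33% beside 3.13% of all genes. The 1 fall in that list was the cytokine Osm, by 0.33 in log2 (adjusted p = 0.0259, second probe -0.053).

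Interferon-induced genes had mostly lower levels in YB, and none passed the test. Of 38 genes 0 rose and 0 fell in limma, 6 had an unadjusted p under 0.05, and the median was -0.57, with 31 of the 38 differences below 0. Oas1a, an antiviral RNA sensor, was at 0.76 and 0.90 in YB and 1.60 and 1.84 in NDL25, so the pools did not overlap, and its difference of -0.88 ± 0.20 had an adjusted p of 0.0576. The other 8 pools ran from 0.30 to 1.74, so the NDL25 pools were at the upper end and the YB pools within the range. Under the alternatives the list's median ran from -0.79 to -0.43. Lists of oxidative phosphorylation (99 genes), ribosomal proteins (83) and proteasome subunits (42) likewise had 0 calls in limma, with 9, 2 and 3 genes at an unadjusted p under 0.05 and medians of -0.14, -0.04 and 0.0092.

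Lists of macrophage and matrix genes had positive medians that followed the pools of YB unequally. The macrophage list had 2 rises (6.90%, beside 3.13% of all genes), Cd14 and the perforin-like Mpeg1 (0.80, adjusted p = 0.0397), and 0 falls among 29 genes. Its median level was 1.35 in YB pool 1 and 0.48 in YB pool 2, against 0.28 and 0.22 in the NDL25 pools. YB pool 1 was the high pool, and the median difference of 0.44 was 0.082 without YB pool 1 and 0.74 without YB pool 2. The defining markers Cd68, Csf1r and C1qa were detected in both strains and were not called, with Csf1r at 0.99 and 0.48 in YB and 0.28 and 0.14 in NDL25. The median difference of the acute phase list depended on the same pool, at 0.69 with all pools, 0.25 without YB pool 1 and 0.77 without YB pool 2. Of 29 fibroblast and matrix genes 2 rose (6.90%) and 0 fell, and all 29 differences were above 0. The median of 0.66 was 0.22 without YB pool 1 and 1.02 without YB pool 2. Tenascin C (Tnc) rose by 1.22 (adjusted p = 0.0407), with 2 other probes at -0.0047 to 0.18, and the matrix protein Fbln2 by 0.96 (adjusted p = 0.0219). The other strains reached -0.88 for Fbln2, above YB at -1.06 and -1.25. Among 42 collagens Col16a1 (1.59, second probe 0.042) and Col18a1 (1.04, second probe 0.57) rose (4.76%) and none fell. Of 71 metalloproteases and inhibitors 4 rose (5.63%) and 0 fell, while 3.13% of all genes rose. The collagenase Mmp13 led the 4 in size (1.26 ± 0.26, adjusted p = 0.041). Endothelial (26), T and cytotoxic cell (25), granulocyte and mast cell (22) and skeletal muscle (25) lists had 0 calls in limma, with 2, 5, 2 and 0 genes at an unadjusted p under 0.05. In tumour RNA, fewer cells of a type and less RNA per cell cannot be told apart. The part of macrophages and stroma in the other differences was not tested.

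**Figure D4:**
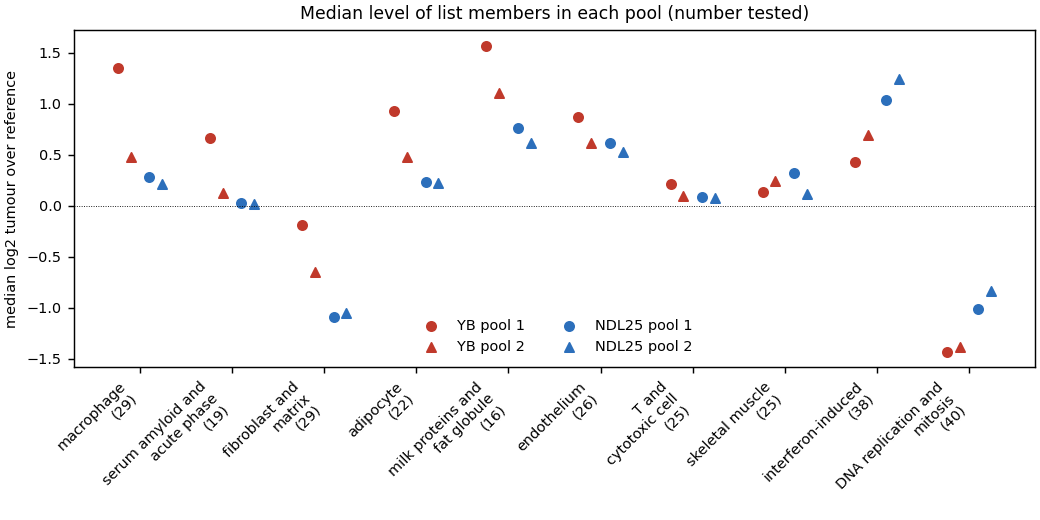
Median log2 tumour over reference of the members of 10 gene lists in YB pool 1 (red circle), YB pool 2 (red triangle), NDL25 pool 1 (blue circle) and NDL25 pool 2 (blue triangle), with the number of genes tested in brackets. YB pool 1 is the highest of the 4 for macrophage, acute phase, fibroblast, adipocyte, milk, endothelial and T and cytotoxic cell lists. Both YB pools are lowest for interferon-induced and replication genes.

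Wnt and BMP genes included several rises. Of 59 Wnt ligands, receptors and antagonists 6 rose (10.2%) and 0 fell, beside 3.13% and 0.787% of all genes. The ligand Wnt5b was at 2.08 and 2.01 in the YB pools, against 0.53 and 0.39 in the NDL25 pools, a rise of 1.59 ± 0.20 (adjusted p = 0.00892) with a second probe at 0.80. Pools of the other strains reached 2.10 for Wnt5b, and the deposited ratios gave 1.03 without a call (adjusted p = 0.285). The receptor Fzd1 was at 1.37 and 1.01 in YB and 0.24 and 0.19 in NDL25. Its YB pools lay above all other pools of the series, and the rise was 0.97 ± 0.14 (adjusted p = 0.0123). The stem cell receptor Lgr6 (1.41), the ligands Wnt9b (0.50) and Wnt4 (0.37) and the receptor Fzd4 (0.45) made up the rest. With the pool number as a term Lgr6, Wnt4 and Fzd4 were not called (adjusted p = 0.0512, 0.0554 and 0.0603). Other strains reached 1.77 for Lgr6, above YB at 1.17 and 0.49, and -1.24 for Wnt4, above YB at -1.39 and -1.54. For Wnt9b and Fzd4 both YB pools lay above all pools of those strains. Of 69 TGF-beta and BMP genes 4 rose (5.80%) and 1 fell (1.45%), beside 3.13% and 0.787% of all genes. Gdf5, a BMP ligand known from joint formation, rose by 1.24 ± 0.12 (adjusted p = 0.00393), and Id4, a BMP-responsive inhibitor of helix-loop-helix factors, by 0.95 ± 0.10 (adjusted p = 0.00505). Both stayed called whichever pool was left out. Fst, the activin antagonist follistatin, rose by 0.56 and Bmp1, a procollagen protease, by 0.59 with a second probe at 0.16. The other strains reached -0.26 for Fst, above YB at -0.47 and -0.38. The fall was Smad3, the signal carrier of TGF-beta receptors, at -1.05 and -0.55 in YB and -0.05 and -0.028 in NDL25 (-0.76 ± 0.16, adjusted p = 0.0477), which was called in 1 of the 12 such fits and had a second probe at -0.17.

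Single transporters and lipid enzymes were among the calls. Of 330 genes with solute carrier symbols, antisense names included, 16 rose (4.85%) and 6 fell (1.82%), beside 3.13% and 0.787% of all genes, with a median of 0.0062. Slc2a5, the fructose transporter, was at 1.91 and 1.86 in YB tumours, against -0.16 and -0.12 in NDL25 tumours and -0.14 to 0.38 in the other strains. The Slc2a5 ratio lay near 0 outside YB, on a dim probe. Its mean log2 intensity was 6.57, beside a median of 9.17 over all genes, so a ratio near 0 may reflect little signal in either channel. The rise of 2.03 ± 0.082 (adjusted p = 4.15e-05) passed under every alternative for which it had a value. Its size ran from 1.98 to 3.92. Slc43a1, an amino acid transporter, rose by 1.13, the zinc importer Slc39a4 by 0.74 and the bicarbonate transporter Slc4a8 by 0.83, with 2 other Slc4a8 probes at -0.073 to 0.18. Slc6a2, the noradrenaline transporter, was at -0.0091 and 0.52 in YB, against 1.96 and 2.26 in NDL25, a difference of -1.85 ± 0.29 (adjusted p = 0.0176), and the glucose transporter family member Slc2a12 fell by 0.61 in log2 (adjusted p = 0.00608). Of 198 ion channels, aquaporins and pumps 13 rose (6.57%) and 1 fell (0.505%), beside 3.13% and 0.787% of all genes. The rises included the calcium pump Atp2a3 (1.39 ± 0.11, adjusted p = 0.00149) and the epithelial calcium channel Trpv6 (0.69 ± 0.059, adjusted p = 0.00188). Of 27 genes of fatty acid synthesis 3 rose (11.1%) and 0 fell. They were the desaturases Fads1 (1.92 ± 0.34, adjusted p = 0.0266) and Fads3 (1.42 ± 0.22, adjusted p = 0.0177) and the factor Mlxipl (0.42, second probe 0.071). Pools of the other strains reached 0.20 for Fads1, above YB at -0.77 and -0.035. For Fads3 they reached -1.20, with YB at -0.89 and -1.27. Of 28 cholesterol genes 1 fell (3.57%), the reductase Dhcr7 (-0.79 ± 0.13, adjusted p = 0.0188). Of 30 hypoxia and glycolysis genes 1 fell (3.33%), the hexokinase Hk1 (-0.84 ± 0.13, adjusted p = 0.0161), with 5 other Hk1 probes at -0.74 to 0.028. Asns, which makes asparagine and follows amino acid stress, rose by 1.50 ± 0.24 (adjusted p = 0.0197). Derl3, a channel component that exports misfolded proteins from the endoplasmic reticulum, was at 0.52 and 0.91 in YB and 2.54 and 2.33 in NDL25, a difference of -1.72 ± 0.27 (adjusted p = 0.0184). Asns and Derl3 were the 1 rise (2.63%) and 1 fall (2.63%) among 38 genes of endoplasmic reticulum stress. Derl3, which plasma cells also express strongly, was the 1 fall among 20 B and plasma cell genes.

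**Figure D5:**
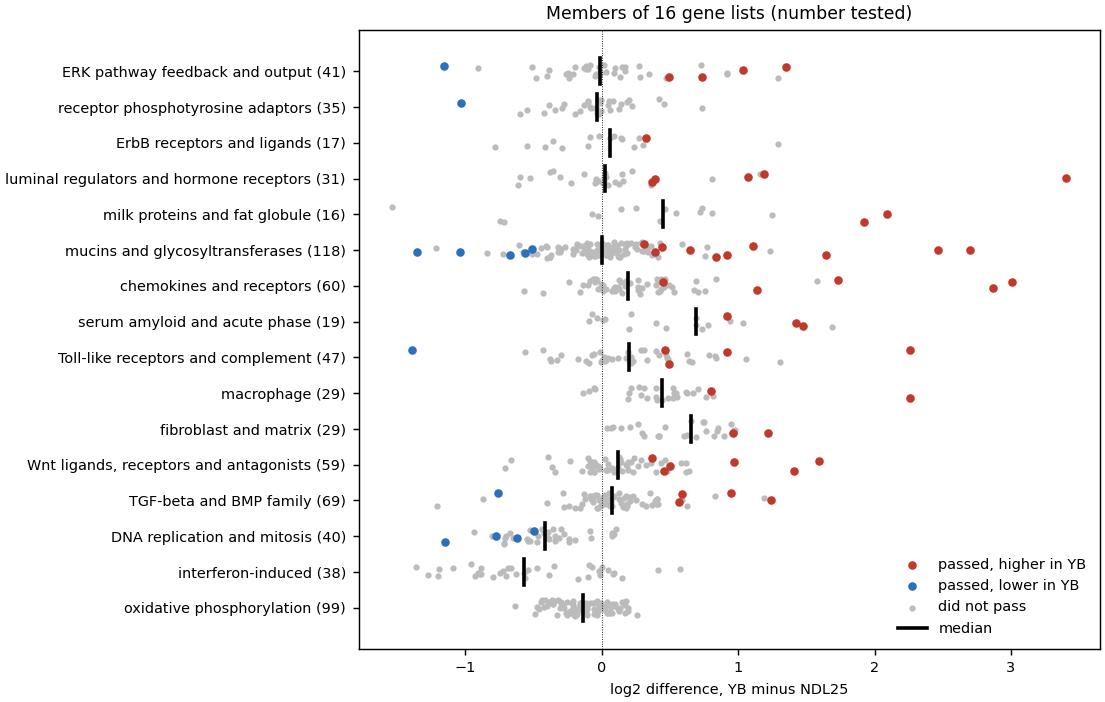
Log2 difference of YB minus NDL25 for the members of 16 gene lists, with the number tested in brackets. Red points passed the test and were higher in YB, blue points passed and were lower, grey points did not pass, and black bars are medians. The medians of ERK output, adaptors and glycosyltransferases lie near 0, those of fibroblast and acute phase genes above 0.6 (0.22 and 0.25 without YB pool 1), and those of interferon-induced and replication genes below -0.4.

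For some of the largest rises the probes of a gene disagreed. Ubr4, a ubiquitin ligase saturated on 1 of the 4 YB arrays, Sfxn4, a mitochondrial carrier of the sideroflexin family, and Gpr83, a G protein-coupled receptor, rose by 3.62, 3.23 and 2.27 on their brightest probe, while another probe of each gave 0.052, -0.23 and 0.041. These rises are values of a single probe, and the other probe of the gene did not show them. Olfr745, an olfactory receptor gene, was at 2.51 and 3.04 in YB, against 0.044 and 0.068 in NDL25 and -0.098 to 0.10 elsewhere, and Aspdh, named as an aspartate dehydrogenase domain gene, at 1.92 and 2.92 in YB and 0.088 and -0.036 in NDL25, each with 1 tested probe. Ces1d, a carboxylesterase, rose by 2.34 ± 0.40 (adjusted p = 0.0232). Bpifb5, a relative of the secreted BPI fold proteins, was at 3.26 and 1.56 in YB, against 0.068 and 0.16 in NDL25. Its spots were saturated on 2 of the 4 YB arrays, and its rise of 2.29 ± 0.44 (adjusted p = 0.032) was called in 2 of the 12 fits that left out 1 pool. Nepn, a secreted leucine-rich protein, was at 0.75 and 0.36 in YB and -2.38 and -1.53 in NDL25, a rise of 2.51 ± 0.47 (adjusted p = 0.0308) called in 4 of the 12 such fits, and its difference from the other 4 strains was not called (0.80, adjusted p = 0.249). Svopl, a transporter-like gene, was not well above background on any NDL25 array and was on all 4 YB arrays. Its log2 ratios were 1.18 and 0.95 in YB and -0.0062 and -0.015 in NDL25, a difference of 1.08 ± 0.087 (adjusted p = 0.00149) in which the NDL25 side is background-limited.

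Among the remaining falls the largest was Proser1, a proline and serine rich protein, at 0.42 and 0.41 in YB, against 2.13 and 2.70 in NDL25, with 2 other probes at -1.40 to -1.22. The difference of -2.00 ± 0.37 had an adjusted p of 0.0312. Rab26, a GTPase of secretory granules, was at 0.60 and 0.74 in the YB pools and 2.04 and 1.91 in the NDL25 pools. The other 8 pools ran from 0.33 to 1.19, so the parental tumours were the high ones. The difference of -1.30 ± 0.11 (adjusted p = 0.00218) stayed called whichever pool was left out, but a second probe gave -0.0023. Rabep2, a partner of endosomal Rab proteins, was at 0.81 and 0.49 in YB and 1.94 and 1.95 in NDL25, and its YB pools were the lowest of the 12 (-1.29 ± 0.17, adjusted p = 0.00898). Cdr2, a leucine zipper protein, fell by 1.54 in log2 (adjusted p = 0.00621), Ddo, which oxidises D-aspartate, by 1.35 (adjusted p = 0.0316) and Pir, an iron-binding nuclear protein, by 1.22 (adjusted p = 0.0165). Tmem82, a membrane protein, fell by 1.52 (adjusted p = 0.039), Kank4, an ankyrin repeat protein, by 1.17 (adjusted p = 0.0384) and Peli2, a ubiquitin ligase of Toll-like receptor signalling, by 1.21 (adjusted p = 0.0457). Peli2 was called in 0 of the 12 fits that left out 1 pool, Tmem82 in 3 of the 12 and Kank4 in 4 of the 12.

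Salivary-type genes are given briefly. Of 32 secreted salivary genes 13 rose (40.6%) and 0 fell. Of 28 oral and gland patterning factors 6 rose (21.4%) and 1 fell (3.57%), beside 3.13% and 0.787% of all genes. Prpmp5, a proline-rich salivary protein, was at 5.98 and 6.10 in the YB pools, against 0.099 and 0.08 in the NDL25 pools, a rise of 5.95 ± 0.069 (adjusted p = 2.17e-08), and the oral patterning factor Pax9 was at 3.94 and 3.59 in YB and -0.20 and -0.26 in NDL25. The acinar factor Bhlha15 and the water channel Aqp5, both known from salivary glands and named with their values already seen, were not called, at -0.38 ± 0.18 and 0.75 ± 0.18. The median level of the 32 secreted genes was 2.26 and 3.07 in YB pools 1 and 2, against 0.19 and 0.21 in NDL25 pools 1 and 2. The median of the differences of single genes was smaller, at 0.72, with 23 of the 32 above 0 and 9 below. YB pool 2 was the higher for this list and YB pool 1 for macrophage genes. Several genes described above, such as Ltf, Pigr, Bpifb5 and Cxcl17, are known secretory products of glands, and how far they belong with the salivary-type genes was not tested.

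YB was also set against the mean of the other 4 altered-receptor strains, a comparison that shares the YB pools with the one above. There 1979 genes (6.98%) differed in limma, 1627 higher (5.74%) and 352 lower (1.24%) in YB. Most arrays of those strains were read in other extraction sessions, and with a session term 20 calls were left. Only YC has arrays in different sessions, so that term rests on the difference between the YC pools. Cxcl12 was 2.3 higher there (adjusted p = 0.000245) and 3.01 higher than in NDL25. Galnt6 was 2.48 higher (adjusted p = 0.000644), Tgm3 2.37 (adjusted p = 2.43e-05) and Slc2a5 1.85 (adjusted p = 9.25e-06). Cd14 was 0.90 higher (adjusted p = 0.0474), and the highest of the other pools was at 1.99. Spry4 differed from the other strains by -0.33 (adjusted p = 0.222), Derl3 by -0.58 (adjusted p = 0.162) and Mfge8 by 0.44 (adjusted p = 0.377), without a call.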

How the data were processed

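Tumour RNA from 12 pools was hybridised against a common reference on 24 two-colour Agilent arrays, with the dyes exchanged within each pool. The authors deposited, per the file headers, scanner intensity values from Agilent Feature Extraction. They also deposited 1 log2 ratio per probe and pool, whose logarithm was taken as base 2. Per the submitters' processing notes, RMA, limma and R 2.3.0 were used, with no role named. A genome build was not given in the sources used here.

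Intensities were background-corrected (normexp, offset 50) and loess-normalised within each array with limma 3.58.1 in R 4.3.3. The labels give either dye for both channels, so the tumour channel was taken as the one in which 30 milk and luminal probes were higher. The pool ratios then correlated with the deposited ones at 0.983 or more. Both arrays of a pool were averaged with their signs aligned, which cancels a constant dye effect. Of 41174 probes, 698 with flagged spots and 312 that were well above background on fewer than 4 arrays in the tumour channel were left out. The brightest probe stood for a gene, which left 28351 genes. Probe names were updated through RefSeq by accession (20716 probes), symbol (5039) or synonym (5279), and 10140 kept the name in the file.

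Strain means were fitted to all 12 pools with limma's moderated test, and p-values were adjusted over all genes (Benjamini-Hochberg, threshold 0.05). The ± values are SE of that fit. The code was tested on simulated data. Named genes were the 15 largest rises and falls of at least 2-fold with an ordinary symbol, non-overlapping pools and no place on the salivary or patterning lists, up to 6 called members of each of 68 lists with the smallest p (2 members where none was called), Erbb2, and genes dim on every array of 1 strain. Other genes are named as markers or for their role, with values known. The strains, lists and rules were chosen with earlier results of these data known. Lists were described by counts and medians, without a test. Alternatives covered background correction, normalization, filters, probes, dyes, deposited ratios, the variance model, extraction session, replicate number and left-out pools.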

Additional observations from a re-analysis of the deposited data

How the results depend on the processing

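The count of 1109 genes called between YB and NDL25 tumours was 12 with the 4 pools fitted alone, 515 without pools numbered 1, 592 with the extraction session as a term and 144 to 1211 when 1 pool was left out. The 886 rises became 12, 480, 484 and 126 to 1044 in the same order, and 587 with the tumour in Cy3 only. The 223 falls became 0 (limma, with 1722 at an unadjusted p under 0.05), 35, 108 and 13 to 212, and 138 with median centring. Background correction, Aquantile, the filters on dim probes, spot flags, probe averaging, Cy5 only, deposited ratios and the robust trend kept these 3 counts within 1.5 times. Against the other 4 strains the 1979 calls became 20 with the session term and 1204 to 2026 when 1 pool was left out. Among the fits of YB and NDL25 that left out 1 pool, the lowest counts came without an NDL25 pool. Only YC has arrays in different sessions, so the session term rests on its pools, and between YB and NDL25 it gave the same counts as leaving out a YC pool. The numbers 1 and 2 are shared by label only, and pool 1 deviations of YB and NDL25 correlated across genes (r = 0.395). With the replicate block 1113 genes were called, 838 higher and 275 lower, and 2014 against the other strains. Of 154 called genes that the naming rule chose, 19 were not called with it (adjusted p = 0.0512 to 0.0652), Lgr6, Wnt4, Fzd4, E2f1, Muc1, Trp63, Cx3cl1, Mmp13, Tnc, H2-Aa, Pigr, Gli1 and Fst among them. Over the named genes 4208 alternative values kept direction and call, 1150 lost the call, 25 gained it, and 6 of called genes reversed. Another 6, of 4 genes not called, changed sign without a call. Values that reversed were -0.012 (flags ignored), -0.050 (Cy5 only) and -0.026 (deposited) for Adam28, -0.040 (mean of probes) and -0.172 (deposited) for Erbb4, and -0.162 (deposited) for H2-Aa. The cause was not tested. Dim probes, near background on some arrays, limit what can be said of low genes.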

Other observations

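Some gene families outside the main account held calls of their own. Of 73 cytochrome P450 genes 7 rose (9.59%) and 0 fell in limma, beside 3.13% and 0.787% over all genes, with a median of 0.033. Cyp2s1, a P450 of epithelial tissues, was at -0.77 and -0.44 in YB, against -1.41 and -1.43 in NDL25, a rise of 0.82 ± 0.13 (adjusted p = 0.0181). Cyp39a1, an oxysterol hydroxylase named after its value was seen, rose by 1.15 ± 0.24 (adjusted p = 0.0434). Among 50 nuclear receptors 2 rose and 0 fell, and that 4% is close to the share of rises over all genes. Esrrg, an orphan receptor of oxidative metabolism, was at 0.76 and 1.20 in YB and -0.022 and 0.045 in NDL25, a rise of 0.96 ± 0.14 (adjusted p = 0.013), and the mineralocorticoid receptor Nr3c2 rose by 0.72 ± 0.13 (adjusted p = 0.0276). Of 63 aldehyde dehydrogenase and retinoid genes 3 rose (4.76%) and 2 fell (3.17%). Aldh1a1, which makes retinoic acid, rose by 0.47 ± 0.079 (adjusted p = 0.022), and its near copy Aldh1a7 by 0.73 ± 0.13 (adjusted p = 0.024), and probes of such close relatives can share signal. Of 39 genes with forkhead symbols 5 rose and 0 fell, of which Foxd2os is an opposite-strand transcript and no forkhead gene, and the rises included Foxp4 (0.47 ± 0.085, adjusted p = 0.027), while 38 Hox genes had 0 calls in limma and 5 at an unadjusted p under 0.05. Vegfc, a growth factor of lymphatic vessels, was at -0.42 and -0.77 in YB, against -1.25 and -1.38 in NDL25, and was the 1 call among 17 VEGF and angiopoietin genes, at 0.72 ± 0.15 (adjusted p = 0.0443). Apoptosis (40 genes) and Notch pathway (27 genes) lists had 0 calls in limma, with 11 and 5 genes at an unadjusted p under 0.05. Second probes did not bear out several of these rises: they gave -0.12 for Cyp2s1, -0.70 for Esrrg, -0.049 for Foxp4 and -0.47 to -0.0021 for Nr3c2. The rises were called in 10 (Cyp2s1), 10 (Esrrg), 4 (Nr3c2), 9 (Aldh1a1), 10 (Aldh1a7), 3 (Foxp4) and 3 (Vegfc) of the 12 fits that left out 1 pool.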
